A study of Mus musculus with 27 samples.

Results

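The genes described here encode telomerase and proteins that bind or guard the chromosome ends: *Tert*, *Dkc1*, *Terf1*, *Terf2*, *Tinf2*, *Rif1*, *Pot1a* and *Acd*. They were taken by gene symbol from the expression tables, where all 8 were found among 20156 genes, by a rule that uses their names and no measured value. Telomerase adds telomeric repeats to chromosome ends. TERT is its reverse transcriptase, and dyskerin, the product of *Dkc1*, binds and stabilizes the telomerase RNA. Shelterin is the complex that coats telomeres and keeps them from being treated as DNA breaks. TRF1 (*Terf1*) and TRF2 (*Terf2*) bind the duplex repeat, TIN2 (*Tinf2*) bridges them, and TPP1 (*Acd*) joins POT1A, which binds the single-stranded overhang, to the rest. RIF1 controls replication timing and the choice of DNA break repair, and in mouse embryonic stem cells it is abundant and also acts at telomeres. Pluripotent stem cells hold telomerase activity, and telomeres are known to lengthen when fibroblasts are reprogrammed.

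The study compared mouse embryonic fibroblasts (MEFs), partially reprogrammed cells (pre-iPSCs) and induced pluripotent stem cells (iPSCs). MEFs came from mid-gestation embryos hemizygous for an Oct4-GFP transgene and a Rosa26 allele, with 129Sv/Jae mothers and fathers of CBA/CaJ and C57BL/6J background, and were passaged at most 3 times before RNA-seq. Pre-iPSCs and iPSCs were made from such MEFs with retroviruses that carried the 4 Yamanaka factors, came from 2 stable pre-iPSC clones and the iPSCs derived from them, and were grown for 6 passages before RNA-seq on mitomycin C-inactivated MEF feeders in medium with LIF. RNA-seq was done on 2 libraries of each cell type, and mononucleosomes freed by MNase were precipitated for H3, H3K4me3 and H3K27me3 in 2 libraries of each cell type and for H3K9me3 in 1. The clone behind each library is not given. MEF nuclei received another MNase amount, for another time, than those of pre-iPSCs and iPSCs, so that in the nucleosome data cell type and digestion cannot be told apart in any comparison with MEFs.

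Several properties of whole libraries bear on these genes. The RNA tables give FPKM (fragments per kilobase of transcript, scaled to the mapped fragments of the library), and the sequencing depth behind them was not taken into account here. The nucleosome calls held 67362868 to 108211816 reads in the H3 libraries and 12007350 to 15222040 in those of the marks. Of 9 fibroblast markers, 7 fell both in pre-iPSCs and in iPSCs, the other two, *Lum* and *Dcn*, were not called, none of the 9 was at 0 in any library, and their summed FPKM was 97.6 to 316 in those cells against 4167 to 4342 in MEFs. *Lum* was at 0.348 and 5.84 FPKM in MEFs, 4.77 and 0.357 for pre-iPSCs and 5.88 and 8.59 for iPSCs, and *Dcn* at 9.0 and 36.6, 21.9 and 4.37, and 30.2 and 40.5, so that both iPSC libraries lay above both pre-iPSC libraries for each. The part of feeder fibroblasts in the other results was not tested. Of 8 pluripotency markers, all 8 rose in iPSCs and 4 (*Pou5f1*, *Tdgf1*, *Utf1* and *Dppa5a*) in pre-iPSCs, both against MEFs. *Pou5f1* was at 378 and 3184 FPKM and *Tdgf1* at 228 and 333 FPKM in pre-iPSCs, while *Nanog*, *Esrrb*, *Zfp42* and *Dppa3* were at 0.519 FPKM or less in all MEF and pre-iPSC libraries and at 11.3 FPKM or more in both iPSC libraries. In such bulk samples, a smaller share of expressing cells and less RNA per cell cannot be told apart. *Pou5f1* encodes Oct4, a Yamanaka factor that pre-iPSCs and iPSCs received by retrovirus, and its FPKM does not separate viral from endogenous transcripts. The first H3 library of pre-iPSCs stood apart, with a median over all promoters of 0.55 RPKM against 0.204 in replicate 2, and the first iPSC library had 0.408.

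Chromosomes 8 and X, which carry 3 of the genes, held unequal shares of the reads. In replicate 1 of iPSCs, chromosome 8, the site of *Terf2* and *Acd*, took 7.45% to 7.78% of the reads in each of its 4 ChIP libraries, and it took 5.16% to 5.79% in the other 17 ChIP libraries. The RNA of the same replicate number stood apart likewise. Over 672 tested genes of chromosome 8, the median difference of replicate 1 from replicate 2 of iPSCs was 0.52 on the log2(FPKM + 1) scale, and over the other 19 chromosomes the medians lay between -0.14 and 0.16. Chromosome X, the site of *Dkc1*, held 3.01% to 4.12% of the ChIP reads in the 7 MEF libraries, 1.31% to 2.59% in those of pre-iPSCs and 1.96% to 2.52% in those of iPSCs. The MEF libraries were thus all higher in their chromosome X share than those of both other cell types. Of chromosome Y, 4 genes chosen by name (*Ddx3y*, *Eif2s3y*, *Kdm5d* and *Uty*) were above 0 in each RNA library. *Kdm5d* was lower in iPSCs (0.66 and 0.483 FPKM) than in pre-iPSCs (4.09 and 4.12; limma adjusted p = 0.0263). The others were not called in any comparison.

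**Figure D1:**
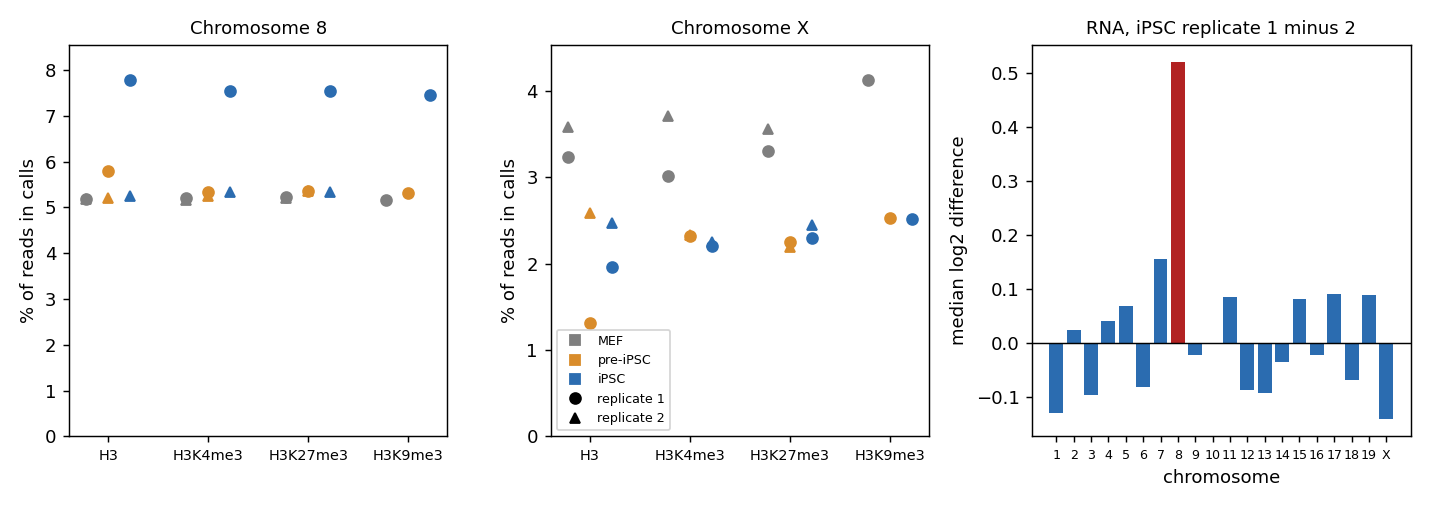
Share of the reads in calls that fell on chromosomes 8 (left) and X (middle) in each ChIP library (percent; colour, cell type; circle, replicate 1; triangle, replicate 2), and the median log2(FPKM + 1) difference of iPSC RNA replicate 1 minus replicate 2 over the genes of each chromosome (right). Replicate 1 of iPSCs sits at 7.45% to 7.78% on chromosome 8, above all other libraries, and MEFs are highest on chromosome X.

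The genes lie on 7 chromosomes, and *Rif1* is on chromosome 2. In the mm9 annotation of the tables, *Tert* spans chr13:73764449-73786489 on the plus strand, *Dkc1* chrX:72341193-72355115 (plus), *Terf1* chr1:15795739-15833510 (plus), *Terf2* chr8:109593302-109620445 (minus), *Tinf2* chr14:56297918-56300654 (minus), *Pot1a* chr6:25693735-25759226 (minus) and *Acd* chr8:108222059-108224995 (minus). *Acd* shares its promoter with *Pard6a*, a cell polarity gene transcribed the other way from a start 59 bp upstream, so that reads near this start belong to both, while no other start was annotated within 1000 bp of the other 7. Promoter sequence was described for the 7 genes with a position given above, from 250 bp before to 50 bp after the start. GC content there ran from 52.7% in *Terf2* to 60.3% in *Pot1a*, and CpG sites from 9 in *Dkc1* to 24 in *Tinf2*, whose CpG number exceeded that of 70.6% of all promoters.

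The promoters of *Tert*, of *Dkc1* and *Terf1*, which were called in an expression comparison, and of *Acd* are shown, since the results below turn on their RNA and, for *Acd*, on its shared start region. They are, in mm9, chr13:73764199-73764498 (plus strand), chrX:72340943-72341242 (plus), chr1:15795489-15795788 (plus) and chr8:108224946-108225245 (minus). Each is written 5′ to 3′ on the strand of the gene, and capitals mark the E-box CACGTG, bound by MYC with MAX among others, and the GC box GGGCGG or its complement CCGCCC, bound by SP1 and related factors.
Tert: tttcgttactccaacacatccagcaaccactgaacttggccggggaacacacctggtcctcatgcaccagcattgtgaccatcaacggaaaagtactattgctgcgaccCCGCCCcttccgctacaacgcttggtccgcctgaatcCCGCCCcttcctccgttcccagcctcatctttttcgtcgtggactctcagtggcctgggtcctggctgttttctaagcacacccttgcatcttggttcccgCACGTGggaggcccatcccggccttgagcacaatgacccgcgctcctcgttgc
Dkc1: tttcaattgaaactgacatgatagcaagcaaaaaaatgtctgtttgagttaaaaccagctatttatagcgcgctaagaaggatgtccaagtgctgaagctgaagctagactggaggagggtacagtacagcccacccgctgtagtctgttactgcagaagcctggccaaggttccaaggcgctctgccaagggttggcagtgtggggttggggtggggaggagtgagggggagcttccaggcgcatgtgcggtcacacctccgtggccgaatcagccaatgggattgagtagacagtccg
Terf1: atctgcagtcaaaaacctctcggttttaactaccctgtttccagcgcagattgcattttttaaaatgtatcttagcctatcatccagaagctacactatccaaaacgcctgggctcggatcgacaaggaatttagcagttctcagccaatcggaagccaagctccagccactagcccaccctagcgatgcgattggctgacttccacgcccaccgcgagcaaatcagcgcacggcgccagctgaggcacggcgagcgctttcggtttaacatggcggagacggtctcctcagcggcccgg
Acd: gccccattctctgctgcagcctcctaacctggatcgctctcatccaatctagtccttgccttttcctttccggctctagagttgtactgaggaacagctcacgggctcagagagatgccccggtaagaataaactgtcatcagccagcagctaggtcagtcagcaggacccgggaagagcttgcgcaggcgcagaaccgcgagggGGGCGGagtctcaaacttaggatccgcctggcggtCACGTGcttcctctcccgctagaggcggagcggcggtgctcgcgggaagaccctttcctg

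The E-box was found in 1625 of 20156 promoters (8.06%), and among the 7 genes in *Tert*, with its first base at position -3 from the start, and in *Acd*, at -10. MYC is one of the Yamanaka factors and a known activator of *Tert*. GC boxes were found in 49.1% of all promoters and in 4 of the 7, *Tert*, *Terf2*, *Pot1a* and *Acd*, with 2 matches in *Tert*. The telomere repeat TTAGGG, read on both strands, was in 10.3% of promoters and in 0 of these 7. These matches describe letters in a window of 300 bases and were not tested as binding sites.

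The first comparison asks which of the genes differ between fibroblasts and the intermediate pre-iPSCs. *Rif1* rose, and *Tert*, *Dkc1*, *Terf1*, *Tinf2* and *Pot1a* were also higher in both pre-iPSC libraries than in both MEF libraries without passing the test. *Terf2* and *Acd* overlapped between the groups. A gene was called at a Benjamini-Hochberg adjusted p below 0.05 over 12401 genes and a log2 difference of at least 1 in limma, fitted on log2(FPKM + 1) with the table as a term. Of the 8 genes, 1 was called higher, where 7.39% of all tested genes were, and 0 of 8 lower, where 9.0% were. In 6 of 8 both libraries lay above the MEF libraries, against 24.6% of all tested genes, and 0 of 8 had both below, against 29.3%. The median difference of the 8 was 0.95 on the log2(FPKM + 1) scale beside -0.04 for all tested genes.

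*Tert*, the catalytic subunit, was at 0.752 and 0.112 FPKM in replicates 1 and 2 of MEFs, then 2.36 and 1.72 for pre-iPSCs and 0.785 and 0.788 for iPSCs. It was the lowest of the 8 in all 3 cell types, and both pre-iPSC libraries lay above the other 4. The mean was 0.432 ± 0.452 FPKM (SD, n = 2) in MEFs and 2.04 ± 0.447 in pre-iPSCs, a log2(FPKM + 1) difference of 1.12 (SE 0.32, limma adjusted p = 0.0549) that missed the threshold. Leaving out replicate 1 of MEFs gave 1.37 (adjusted p = 0.0336) and leaving out replicate 2 gave 0.86 (adjusted p = 0.257). Without replicate 1 or 2 of pre-iPSCs the difference was 1.129 and 1.103 (adjusted p = 0.147 and 0.193). In each such fit 1 library stands for its group and is assumed to vary like the other groups. In iPSCs both values were below those of pre-iPSCs and above that of replicate 1 of MEFs, and no comparison with iPSCs passed the test.

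*Dkc1*, which encodes dyskerin, had the highest mean FPKM of the 8 in each cell type, although *Acd*, at 27.5 FPKM, was above it in replicate 2 of MEFs. *Dkc1* was at 34.4 and 18.9 FPKM in MEFs, 61.5 and 52.4 for pre-iPSCs and 62.2 and 66.2 for iPSCs. Both later cell types lay above MEFs without overlap. In pre-iPSCs against MEFs the log2 difference was 1.12 (SE 0.37, limma adjusted p = 0.0866), without replicate 1 of MEFs it was 1.51 (adjusted p = 0.013), and without replicate 2 it was 0.74 (adjusted p = 0.305). Without replicate 1 or 2 of pre-iPSCs it was 1.20 and 1.05 (adjusted p = 0.443 and 0.609). The gene lies on chromosome X, whose share of the ChIP reads was lower in pre-iPSCs and iPSCs than in MEFs. The part of chromosome X in the RNA of *Dkc1* was not tested. When the medians of each chromosome were set equal in each RNA library, an alternative chosen after seeing the data, *Dkc1* and *Tert* were both called in this comparison, at 1.33 (adjusted p = 0.0469) and 1.21 (adjusted p = 0.0365), and the calls went from 1 to 3 of 8, while those of all 12401 genes went from 916 higher and 1116 lower to 1020 and 1055.

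*Rif1* was at 4.87 and 2.14 FPKM in MEFs, 14.1 and 10.6 for pre-iPSCs and 16.3 and 24.4 for iPSCs, so that the 3 cell types did not overlap and were ordered MEFs, pre-iPSCs, iPSCs. Its mean was 3.52 times as high in pre-iPSCs as in MEFs, with a log2 difference of 1.62 (SE 0.44, limma adjusted p = 0.0455). The call was lost in 4 of the 6 fits that leave out 1 library. Without replicate 2 of MEFs the difference was 1.13 (adjusted p = 0.117). Without replicate 1 or 2 of pre-iPSCs it stayed at 1.53 and 1.72 while adjusted p was 0.278 and 0.216. Without replicate 2 of iPSCs, which is not in this contrast but adds to the estimate of the spread, it was 1.62 (adjusted p = 0.0503), and with no filter on low values 1.62 (adjusted p = 0.0978).

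**Figure D2:**
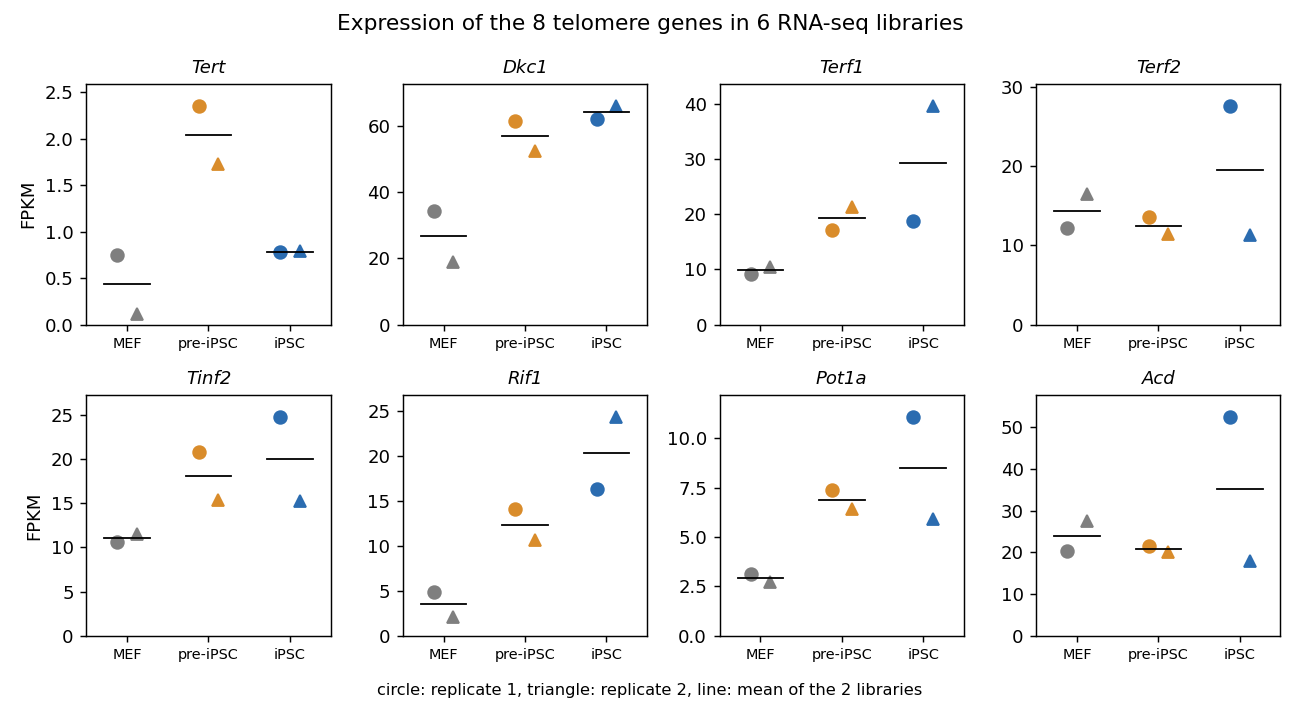
FPKM of each gene (vertical axis, own scale per gene, from 0) in the 6 RNA libraries by cell type; circle, replicate 1; triangle, replicate 2; line, mean of both. *Tert* peaks in pre-iPSCs at 2.36 and 1.72 FPKM, *Rif1* climbs from 2.14 and 4.87 in MEFs to 16.3 and 24.4 in iPSCs, and *Terf2* and *Acd* are highest in replicate 1 of iPSCs.

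Among the shelterin genes, *Terf1* was at 9.16 and 10.5 FPKM in MEFs, 17.2 and 21.3 for pre-iPSCs and 18.8 and 39.8 for iPSCs. *Tinf2* was at 10.6 and 11.5 in MEFs, 20.8 and 15.3 for pre-iPSCs and 24.8 and 15.2 for iPSCs. *Pot1a* was at 3.13 and 2.74 in MEFs, 7.37 and 6.4 for pre-iPSCs and 11.1 and 5.91 for iPSCs. These 3 genes had both pre-iPSC and both iPSC libraries above both MEF libraries, while pre-iPSCs and iPSCs overlapped. Against MEFs, pre-iPSCs differed by 0.90 for *Terf1* (SE 0.37, limma adjusted p = 0.15), 0.65 for *Tinf2* (SE 0.36, adjusted p = 0.272) and 1.0 for *Pot1a* (SE 0.38, adjusted p = 0.121), none past the threshold.

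*Terf2* and *Acd*, the other two shelterin genes, overlapped between all cell types. *Terf2* was at 12.2 and 16.5 FPKM in MEFs, 13.55 and 11.4 for pre-iPSCs and 27.7 and 11.3 for iPSCs. *Acd* was at 20.3 and 27.5 in MEFs, 21.5 and 20.1 for pre-iPSCs and 52.5 and 18.0 for iPSCs. For both, replicate 1 of iPSCs was the highest of the 6 libraries and replicate 2 the lowest. Pre-iPSCs and MEFs differed by -0.18 for each gene (SE 0.45 and 0.49, limma adjusted p = 0.842 and 0.861). Both genes are on chromosome 8, which stood apart in replicate 1 of iPSCs. Without that library, the iPSC against MEF difference of *Terf2* turned from 0.30 to -0.35 and that of *Acd* from 0.37 to -0.45. Without replicate 2 of iPSCs they were 0.96 and 1.20, without replicate 1 of MEFs -0.26 and -0.23, without replicate 2 of MEFs 0.87 and 0.98, and with each chromosome centred 0.20 and 0.27. The part of chromosome 8 in these values was not tested.

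The second comparison concerns the step from pre-iPSCs to iPSCs. None of the 8 genes was called in either direction in limma, against 3.91% of all tested genes called higher and 4.71% called lower, and 1 of the 8, *Tert*, had an unadjusted p below 0.05, against 21.6% of all genes. *Rif1* and *Dkc1* had both iPSC libraries above both pre-iPSC libraries, which 20.9% of tested genes had, and *Tert* had both below, which 31.1% had. The difference was -0.76 for *Tert* (SE 0.32, adjusted p = 0.225), 0.67 for *Rif1* (SE 0.44, adjusted p = 0.458) and 0.17 for *Dkc1* (SE 0.37, adjusted p = 0.857). These sizes moved with the iPSC library left out. Without replicate 2 of iPSCs, *Rif1* was at 0.07, *Dkc1* at -0.14 and *Tert* at -1.0, and without replicate 1 at 1.26, 0.48 and -0.52 in turn. The mean of *Tert* in iPSCs was 0.385 times that in pre-iPSCs. The other 5 genes lay between 0.12 and 0.55 with adjusted p from 0.528 to 0.909, and their libraries overlapped. Without replicate 1 of iPSCs *Terf2* turned from 0.48 to -0.17 and *Acd* from 0.55 to -0.28. *Tinf2* turned too, from 0.12 to -0.14, and *Pot1a* from 0.22 to -0.11, while *Terf1* stayed above 0.

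The third comparison joins the ends of the process. In iPSCs against MEFs, *Rif1*, *Terf1* and *Dkc1* were called higher, 3 of 8 where 10.3% of all tested genes were called higher, and 0 of 8 were called lower, where 15.5% were. In 6 of 8 both iPSC libraries lay above both MEF libraries, against 26.7% of tested genes, and none had both below, against 36.2%. *Rif1* differed by 2.29 (SE 0.44, limma adjusted p = 0.00998), a mean FPKM 5.81 times as high. *Terf1* differed by 1.39 (SE 0.37, adjusted p = 0.0321) and *Dkc1* by 1.30 (SE 0.37, adjusted p = 0.0414). *Pot1a* differed by 1.22 and missed the threshold (SE 0.38, adjusted p = 0.0536), and it was called under quantile normalization (1.34, adjusted p = 0.0397), without the intensity trend (1.22, adjusted p = 0.0477) and with each chromosome centred (1.46, adjusted p = 0.0319). *Tinf2* differed by 0.77 (SE 0.36, adjusted p = 0.161) and *Tert* by 0.36 (SE 0.32, adjusted p = 0.452). For *Tert* the difference was 0.61 without replicate 1 of MEFs and 0.10 without replicate 2, and 0.60 and 0.12 without replicates 1 and 2 of iPSCs. The median of the 8 was 0.99 beside -0.14 for all tested genes. Quantile normalization moved the median of all tested genes by 0.18 in this comparison and by 0.11 in iPSCs against pre-iPSCs, and the 3 called genes remained above 0 under every alternative run.

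The 3 calls differed in how many held when 1 library was left out. The call of *Rif1* was lost only without replicate 2 of iPSCs (1.70, adjusted p = 0.0851). *Terf1* was lost in 5 of the 6 fits that leave out 1 library, with differences from 0.99 to 1.80 and adjusted p from 0.0592 to 0.179, and called without replicate 1 of MEFs. *Dkc1* was likewise lost in 5 of 6, with differences from 0.91 to 1.61 and adjusted p from 0.0863 to 0.204. Leaving out either pre-iPSC library left the differences of *Terf1* (1.39) and *Dkc1* (1.30) as they were, and the calls were lost through the adjusted p alone. With no filter on low values *Terf1* (adjusted p = 0.0515) and *Dkc1* (adjusted p = 0.0573) were lost too, and *Dkc1* also without the table as a term (adjusted p = 0.0518). Of 7 cell cycle markers, 3 (*Mcm2*, *Mcm5* and *Ccnb1*) were also called higher in iPSCs against MEFs and 0 lower, where 10.3% and 15.5% of all tested genes were. *Mki67* (49.2 and 5.7 FPKM in MEFs, 20.3 and 28.2 for iPSCs) was not called, and the summed FPKM of the 7 was 259 to 426 in MEFs, 364 to 616 in pre-iPSCs and 621 to 794 in iPSCs. Their part in the differences of the telomere genes was not tested.

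**Figure D3:**
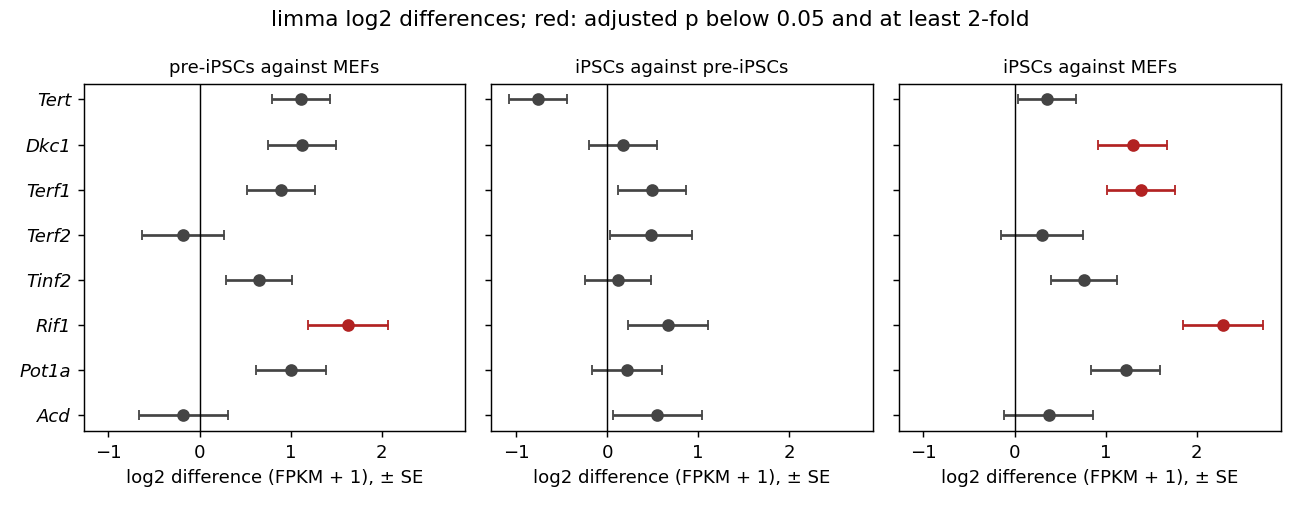
Difference of each gene on the log2(FPKM + 1) scale (horizontal axis, point ± SE from limma) in the 3 comparisons; red, called. *Rif1* is called against MEFs in pre-iPSCs (1.62) and iPSCs (2.29). *Terf1* (1.39) and *Dkc1* (1.30) are called in iPSCs against MEFs, and no gene in iPSCs against pre-iPSCs, where *Tert* alone lies below 0 (-0.76).

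FPKM are values per length, so levels of different genes can be ordered. In MEFs the order of the means was *Dkc1*, *Acd*, *Terf2*, *Tinf2*, *Terf1*, *Rif1*, *Pot1a*, *Tert*, from 26.6 to 0.432 FPKM, and the ranges of *Dkc1* and *Acd* and of *Rif1* and *Pot1a* overlapped. In iPSCs *Dkc1* led with 64.2 ± 2.83 (SD, n = 2), *Acd*, *Terf1*, *Rif1*, *Tinf2* and *Terf2* followed with ranges that overlapped between neighbours, and *Pot1a* and *Tert* were last. *Rif1* moved from a level above 57.7% of all genes in MEFs to one above 85.3% in iPSCs. The *Tert* mean exceeded 42.5%, 51.7% and 43.7% of all genes in MEFs, pre-iPSCs and iPSCs.

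Over the 6 libraries, the patterns of the 8 genes fell close to different genes among the 12401 tested. By Pearson's r of log2(FPKM + 1), given as a description over n = 6 libraries that share tables and cell types, *Terf2* was nearest to *Acd* (r = 0.993), *Thap11* (0.991) and *Erich1* (0.984), all of chromosome 8, and *Acd* was nearest to *Terf2*, to *Tmem121* of chromosome 12 (0.99) and to *Got2* of chromosome 8 (0.977). Both *Terf2* and *Acd* were highest in replicate 1 of iPSCs, where chromosome 8 stood apart. *Tert* was nearest to *Ddhd1*, *Junb* and *Prkcc* (0.992 to 0.998), *Dkc1* to *Ipmk*, *Npm1* and *Zfp2* (0.997 to 0.998) and *Rif1* to *Taf4b*, *Kdm4c* and *Cep57* (0.991 to 0.994). *Terf1* was nearest to *Lin52*, *Rsbn1l* and *Nfasc* (0.987 to 0.993), *Tinf2* to *Ddx39b*, *Xab2* and *Lrch1* (0.988 to 0.993) and *Pot1a* to *Prcc*, *Dhx34* and *Cdkn2aipnl* (0.993 to 0.999). Among the 8 themselves, *Rif1* and *Dkc1* (0.973) and *Tinf2* and *Pot1a* (0.962) were the closest pairs after *Terf2* and *Acd*, while *Tert* was at -0.31 with *Terf2*.

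Other genes of telomere biology were read from a list of 37, of which 36 were in the tables and all 36 were tested. Of these 36, there were 1 called higher and 0 lower in pre-iPSCs against MEFs, 6 and 0 between pre-iPSCs and iPSCs, then 8 and 1 between MEFs and iPSCs, with medians of 0.36, 0.20 and 0.62 beside -0.04, -0.09 and -0.14 for all tested genes. Over all tested genes the shares called higher and lower were 7.39% and 9.0%, 3.91% and 4.71%, and 10.3% and 15.5% in turn. The remaining shelterin genes did not pass in any comparison. *Terf2ip*, which encodes the TRF2 partner RAP1, was at 3.49 to 7.11 FPKM over the 6 libraries, and *Pot1b*, the second mouse POT1 gene, at 0.569 to 2.74. Of 11 tested genes of the telomerase particle and its assembly, 0 were called in all 3 comparisons. Among the proteins that sit with dyskerin on the telomerase RNA, *Gar1* was at 33.7 and 30.9 FPKM in MEFs, 62.5 and 46.9 for pre-iPSCs and 74.6 and 64.5 for iPSCs, with a difference of iPSCs from MEFs of 1.08 (SE 0.34, limma adjusted p = 0.0532). *Nop10* (124 to 392 FPKM) and *Nhp2* (75.5 to 147) overlapped between the cell types. *Terc*, the telomerase RNA, was not analysed here.

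The calls of that list came mostly from 1 gene family. *Zscan4b* to *Zscan4f*, which are known for telomere lengthening in rare mouse embryonic stem cells, were listed at 0 in all 4 MEF and pre-iPSC libraries and present in both iPSC libraries, and all 5 were called in both comparisons with iPSCs. They passed the filter on low values through the iPSC libraries alone, where they are high, so that their calls are not independent of the filter. Of the other 31 genes, 1 was called higher and 0 lower between pre-iPSCs and iPSCs, and 3 and 1 between MEFs and iPSCs, with medians of 0.09 and 0.48. The 3 largest were *Zscan4f* at 32.7 and 11.5 FPKM, *Zscan4c* at 18.6 and 5.99 and *Zscan4d* at 10.1 and 5.02. These genes are near copies of each other, so the split of reads between them is uncertain. The one gene called in pre-iPSCs against MEFs was *Ctc1* (1500010J02Rik in the tables), which encodes a CST subunit that ends telomerase action, at 10.7 and 7.45 FPKM in MEFs, 29.7 and 33.5 for pre-iPSCs and 38.3 and 19.4 for iPSCs (difference 1.71, SE 0.39, limma adjusted p = 0.0245). It was also called in iPSCs against MEFs (1.51, adjusted p = 0.0283), as were *Daxx* (1.81, adjusted p = 0.0085) and the helicase gene *Blm* (1.88, adjusted p = 0.0348). *Daxx*, an ATRX partner in H3.3 deposition at telomeres, was also called in iPSCs against pre-iPSCs (1.46, adjusted p = 0.0373). *Tnks1bp1*, whose product binds tankyrase, was the 1 gene of the list called lower, from 45.8 and 33.0 FPKM in MEFs to 4.68 and 8.41 in iPSCs (difference -2.45, adjusted p = 0.00588). *Daxx* and *Blm* were chosen for naming after their values were seen.

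H3K4me3, the mark of active promoters, gave reads at all 8 genes in every library. Reads of called nucleosomes within 1000 bp of the start were counted and given as RPKM, reads per kilobase scaled to the uniquely mapped reads of the library. The 8 promoters held 28 to 66 reads in MEFs, 13 to 45 in pre-iPSCs and 13 to 70 in iPSCs. Above 1 RPKM, the level taken as presence of a mark, were 7 and 6 of 8 promoters in the MEF libraries, 4 and 4 of them for pre-iPSCs and 5 and 2 for iPSCs, where 56.4% and 47.3%, 40.5% and 35.9%, and 41.1% and 34.4% of all promoters were. At *Acd*, which shares its start region with *Pard6a*, the level reached the highest value of all, at 1.73 and 2.1 RPKM in MEFs, 0.981 and 1.46 for pre-iPSCs and 2.17 and 1.15 for iPSCs. The level of 2.17 came from replicate 1 of iPSCs, where chromosome 8 held 7.53% of reads, against 5.17% to 5.33% in other H3K4me3 libraries. At *Rif1* it was 1.49 and 0.955 RPKM in MEFs, 1.35 and 0.747 for pre-iPSCs and 1.15 and 0.954 for iPSCs, overlapping in every pair of cell types. At *Tert* it was 1.59 and 0.987 in MEFs, 1.04 and 0.617 for pre-iPSCs and 0.807 and 0.921 for iPSCs. The highest *Tert* RNA was in pre-iPSCs and the highest H3K4me3 in replicate 1 of MEFs. That library also had the highest median over all promoters (1.22 RPKM). The *Tert* level exceeded that of 62.7% and 51.3% of promoters in the MEF libraries and 61.6% and 36.9% for pre-iPSCs.

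No promoter of the 8 was called for H3K4me3 in edgeR's quasi-likelihood test with TMM scaling over 17700 promoters, where a call is an adjusted p below 0.05 with no minimum fold. In pre-iPSCs against MEFs, 3.05% of all promoters were called higher and 0.797% lower, 0.0% and 0.0% from pre-iPSCs to iPSCs, and in iPSCs against MEFs 9.74% and 4.01%. DESeq2 called far fewer, 31 promoters higher and 0 lower in the first of these against 540 and 141, 0 in the second, and 114 and 4 in the last against 1724 and 709, with 0 of the 8 in each. At an unadjusted p below 0.05 there were 1 of 8 (*Dkc1*), 0 of 8 and 1 of 8 (*Pot1a*) in turn, beside 19.6%, 8.93% and 29.9% of all promoters. *Dkc1* had the largest difference, at 0.948 and 1.18 RPKM in MEFs, 0.399 and 0.487 for pre-iPSCs and 0.683 and 0.428 for iPSCs. Both later cell types lay below MEFs, with -0.89 in pre-iPSCs (SE 0.36, edgeR adjusted p = 0.153) and -0.60 in iPSCs (SE 0.35, adjusted p = 0.243). With each chromosome scaled to its reads in each library, an alternative chosen after seeing the data, these became -0.37 and -0.01. *Pot1a* was at 1.66 and 1.18 RPKM in MEFs, 0.92 and 0.844 for pre-iPSCs and 0.621 and 0.855 for iPSCs, a difference of -0.59 in iPSCs against MEFs (SE 0.29, adjusted p = 0.163). *Terf2* was at 1.83 and 1.4 in MEFs, 0.797 and 1.01 for pre-iPSCs and 1.12 and 0.691 for iPSCs. The iPSC difference from MEFs, -0.48 (SE 0.27, adjusted p = 0.226), became -0.80 and was called (adjusted p = 0.0323) once each chromosome was scaled to its reads in each library.

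The scaling of H3K4me3 sets the level of all promoters. With uniquely mapped reads in place of TMM, the median of all promoters moved by -0.39 in pre-iPSCs against MEFs and by -0.35 in iPSCs against MEFs, and calls turned from 540 higher and 141 lower to 232 and 1134, and from 1724 and 709 to 842 and 2370. *Dkc1* in the former and *Pot1a* in the latter were then called lower. In RPKM, which has that scale, 5 of 8 promoters lay below MEFs in both pre-iPSC libraries (48.4% of tested promoters did) and 5 of 8 in both iPSC libraries (46.3% did), with 0 of 8 above in each (12.1% and 16.8%). From pre-iPSCs to iPSCs 1 of 8 (*Terf1*) lay below in both libraries and 0 above, beside 16.0% and 21.5%. Lower values in both libraries were thus common among all promoters too.

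**Figure D4:**
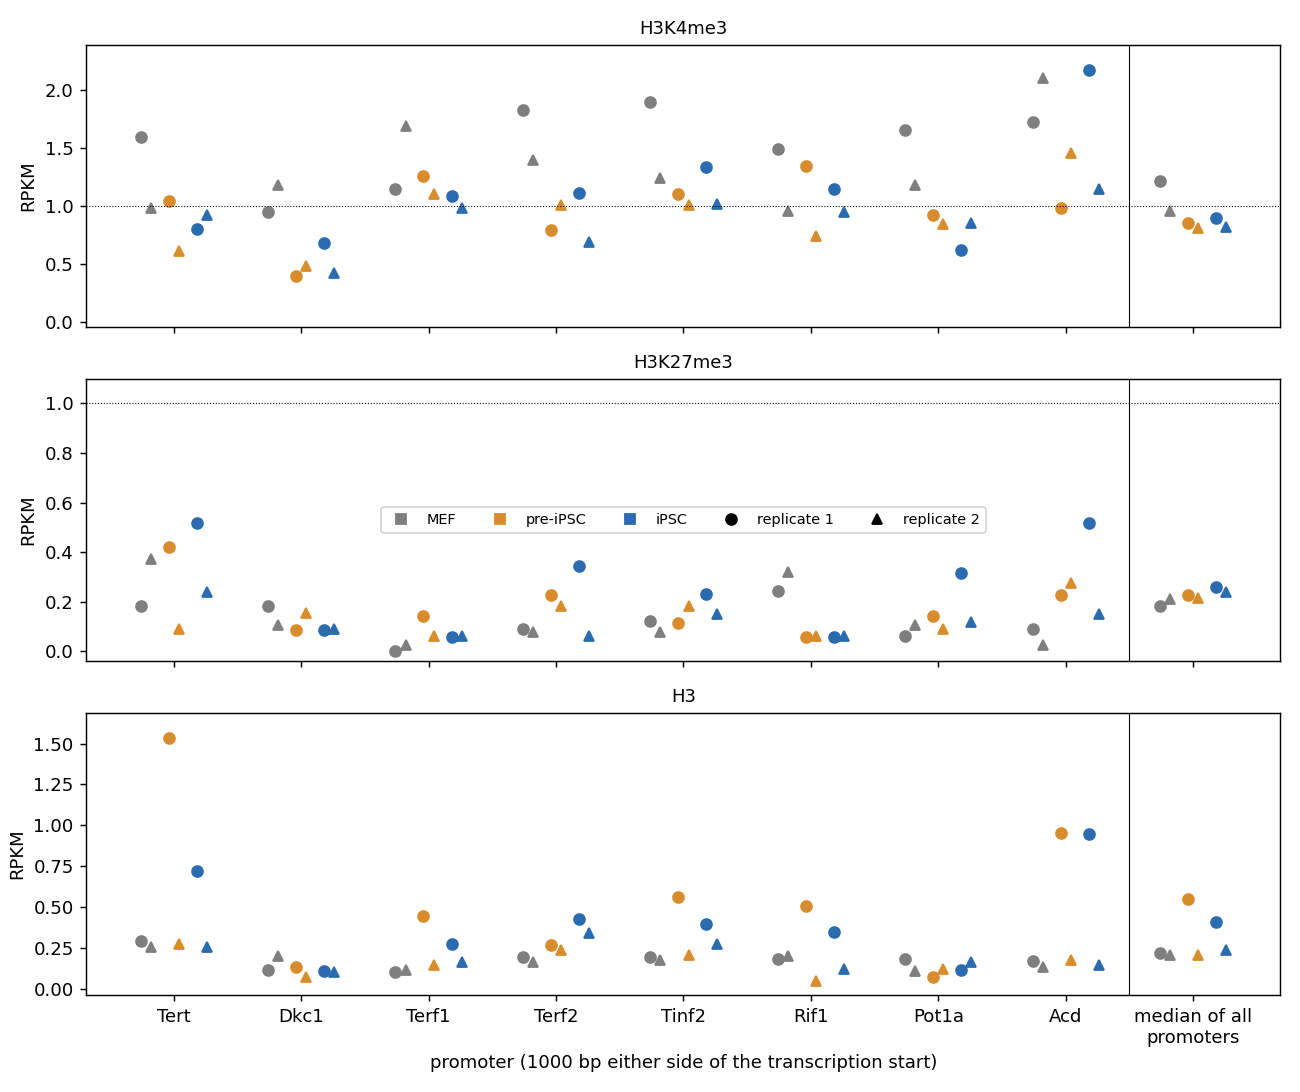
RPKM within 1000 bp of the start for H3K4me3, H3K27me3 and H3 (vertical axis) at each promoter and as the median of all promoters, by library (colour, cell type; circle, replicate 1; triangle, replicate 2; dotted line, 1 RPKM). H3K4me3 lies between 0.399 and 2.17 RPKM, H3K27me3 stays at or below 0.518, and H3 is high in replicate 1 of pre-iPSCs at *Tert* (1.54) and *Acd* (0.951).

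H3K27me3, the mark laid by Polycomb repressive complex 2, was low at all 8 promoters. It ran from 0.0 to 0.518 RPKM over all libraries, so that 0 of 8 promoters were above 1 RPKM in any of the 6 libraries, beside 0.938% to 2.61% of all promoters. *Tert* was at 0.182 and 0.371 RPKM in MEFs, 0.422 and 0.0917 for pre-iPSCs and 0.518 and 0.239 for iPSCs, which overlap. It was the one of the 8 with enough reads to be tested, among 10407 promoters, and its differences of -0.10, 0.48 and 0.38 in the 3 comparisons did not pass (edgeR adjusted p = 0.935, 0.779 and 0.663). Of all tested promoters, 5.01% were called higher and 3.09% lower in pre-iPSCs against MEFs, 0.663% and 0.135% from pre-iPSCs to iPSCs, and 7.33% and 3.88% between MEFs and iPSCs. *Rif1* held 8 and 12 reads in MEFs and 2 in each of the other 4 libraries. MEFs lay above the rest there, at a depth below the filter of the test. With no filter it was called lower in both comparisons with MEFs, and 735 promoters were called in pre-iPSCs against MEFs. In RPKM, 3 of 8 promoters (*Terf1*, *Terf2* and *Acd*) lay above MEFs in both pre-iPSC libraries and 1 (*Rif1*) below. In iPSCs 4 (*Terf1*, *Tinf2*, *Pot1a* and *Acd*) lay above MEFs and 2 (*Rif1* and *Dkc1*) below. From pre-iPSCs to iPSCs 1 (*Terf1*) lay below and 0 above. The shares of all promoters that did so are not given here. *Acd* held 3 and 1 reads in MEFs, 8 and 9 for pre-iPSCs and 18 and 5 for iPSCs, so that both other cell types lay above MEFs. It had too few reads for the test, and with no filter on low counts it was called higher in iPSCs than in MEFs. The 18 reads are from replicate 1 of iPSCs, where chromosome 8 stood apart, and without that library it was not tested.

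H3K9me3, a mark of silent heterochromatin, was measured in 1 library per cell type, so there is no replicate check and no test. The 8 promoters held 1 to 10 reads each. *Tert* had 10 reads in MEFs (exact Poisson 95% interval 4.8 to 18.4), 9 in pre-iPSCs (4.12 to 17.1) and 8 in iPSCs (3.45 to 15.8), and *Rif1* 9 (4.12 to 17.1), 3 (0.619 to 8.77) and 4 (1.09 to 10.2). These intervals cover counting error only and overlap in each gene named. *Acd* ran the other way, with 1 read in MEFs (0.0253 to 5.57), 7 in pre-iPSCs (2.81 to 14.4) and 9 in iPSCs (4.12 to 17.1). The iPSC library is of replicate 1, and chromosome 8 held 7.45% of its reads, against 5.16% in MEFs and 5.31% in pre-iPSCs. The median of the 8 was 0.197, 0.156 and 0.182 RPKM in MEFs, pre-iPSCs and iPSCs beside 0.197, 0.218 and 0.265 for all promoters.

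H3 reads measure nucleosome occupancy, and in 7 of the 8 genes, all but *Pot1a*, replicate 1 lay above replicate 2 both in pre-iPSCs and in iPSCs. The median over all promoters was likewise higher in replicate 1, at 0.55 against 0.204 RPKM in pre-iPSCs and 0.408 against 0.238 in iPSCs. *Tert* held 0.29 and 0.257 RPKM in MEFs, 1.54 and 0.27 for pre-iPSCs and 0.72 and 0.254 for iPSCs, and *Acd* 0.167 and 0.131, 0.951 and 0.177, and 0.948 and 0.146. Chromosome 8, the site of *Acd* and *Terf2*, held 7.78% of the H3 reads in replicate 1 of iPSCs and 5.25% in replicate 2. *Rif1* held 0.179 and 0.203 in MEFs, 0.504 and 0.0496 for pre-iPSCs and 0.348 and 0.119 for iPSCs, so that the pre-iPSC libraries lay on either side of the MEF libraries. *Pot1a* was at 0.179 and 0.108 in MEFs, 0.0731 and 0.121 for pre-iPSCs and 0.116 and 0.162 for iPSCs. *Dkc1* ran from 0.0717 to 0.203, with its highest value in replicate 2 of MEFs. *Terf1* was at 0.1 and 0.117 in MEFs, 0.443 and 0.143 for pre-iPSCs and 0.272 and 0.162 for iPSCs. *Tinf2* was at 0.195 and 0.176, 0.562 and 0.204, and 0.396 and 0.27, and *Terf2* at 0.195 and 0.162, 0.269 and 0.237, and 0.424 and 0.341. In RPKM, 4 of 8 promoters (*Terf1*, *Terf2*, *Tinf2* and *Acd*) lay above MEFs in both pre-iPSC libraries, as 23.2% of tested promoters did, and 0 of 8 below (7.69%). In iPSCs against MEFs 3 of 8 (*Terf1*, *Terf2* and *Tinf2*) lay above, where 44.1% did, and 1 (*Dkc1*) below, where 9.23% did. From pre-iPSCs to iPSCs 1 of 8 (*Terf2*) lay above and 0 below, beside 3.83% and 2.83%. edgeR called 0 of 19560 promoters in each of the 3 H3 comparisons (0.0%), and DESeq2 called 0 as well. At an unadjusted p below 0.05 there were 0 of 8 in each, beside 1.91%, 0.537% and 1.51% of all promoters. In pre-iPSCs against MEFs, on the TMM scale, *Tert* differed by 0.66 (SE 0.45, adjusted p = 0.871), and by 0.06 without replicate 1 of pre-iPSCs, the library that stood apart, and *Acd* by 0.87 (SE 0.69, adjusted p = 0.871), and by 0.32 without it. With uniquely mapped reads in place of TMM, the scale of the RPKM, the median of all promoters moved by 0.88 in this comparison, by -0.29 in iPSCs against pre-iPSCs and by 0.55 in iPSCs against MEFs, and 0 promoters were called in each. *Tert* then differed by 1.72 and *Acd* by 1.92 in pre-iPSCs against MEFs, while *Rif1* turned from -0.61 to 0.55 and *Terf2* from -0.08 to 0.50. *Rif1* also turned in iPSCs against MEFs, from -0.34 to 0.30, and between pre-iPSCs and iPSCs *Rif1*, *Tinf2* and *Acd* turned from 0.27, 0.14 and 0.27 to -0.25, -0.20 and -0.04.

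The calls around the starts showed a gap at most of these genes. From position -150 to 50, a window that would hold 10.0% of evenly spread reads, H3K4me3 calls of the 6 libraries together held 0 of 227 reads at *Terf1* and 0 of 299 at *Acd*, 2 of 212 at *Terf2*, 2 of 236 at *Tinf2*, 3 of 207 at *Rif1* and 4 of 188 at *Pot1a*. All promoters together had 5.66% of their reads there. *Tert* had 28 of 185 reads (15.1%), and without any 1 library it had 13.6% to 16.9%. *Dkc1* had 8 of 128 (6.25%), of which 4 came from replicate 2 of pre-iPSCs, and without that library it had 4 of 113 (3.54%). For *Terf2*, *Tinf2*, *Rif1* and *Pot1a* the share without any 1 library stayed between 0.518% and 2.47%. Leaving out libraries in these windows was chosen after seeing the data. H3 reads were as few for *Terf1* and *Acd* (0 of 283 and 0 of 602 reads) and few for *Terf2*, *Tinf2*, *Rif1* and *Pot1a* (1.7% to 3.07%), with 8.93% at *Tert* and 12% at *Dkc1* against 8.02% over all promoters. Without 1 library the H3 share of those 4 genes ran from 0.0% (*Pot1a* without replicate 1 of iPSCs) and 0.631% (*Terf2* without replicate 2 of MEFs) to 4.18% (*Rif1* without replicate 1 of iPSCs). That of *Tert* ran from 7.12% (without replicate 1 of iPSCs) to 9.61%. Of its 70 H3 reads there, 33 came from replicate 1 of pre-iPSCs and 27 from replicate 1 of iPSCs. Each remaining library held 0 to 4, out of 47 to 57 reads within 1000 bp of the start. Leaving out 1 library at a time does not remove both of the former. That of *Dkc1* ran from 8.85% (without replicate 2 of MEFs, which held 9 of its 19 reads) to 13.8%. In the next window, 51 to 250 bp after the start, H3K4me3 held 18.1% to 20.8% of the reads at *Tert*, *Terf1*, *Tinf2*, *Pot1a* and *Acd*, but 3.12% at *Dkc1*, 6.76% at *Rif1* (3.68% without replicate 1 of MEFs) and 8.02% at *Terf2*, where 13.6% stood over all promoters. The fullest 100-bp bin after the start began at 100 bp for *Tinf2* (19.9%) and *Pot1a* (18.1%), at 200 bp for *Tert* (14.6%), at 300 bp for *Dkc1* (25%) and *Acd* (15.1%), at 400 bp for *Terf1* (13.2%) and *Terf2* (15.6%) and at 600 bp for *Rif1* (15.9%). Which start was in use in these cells was not tested.

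**Figure D5:**
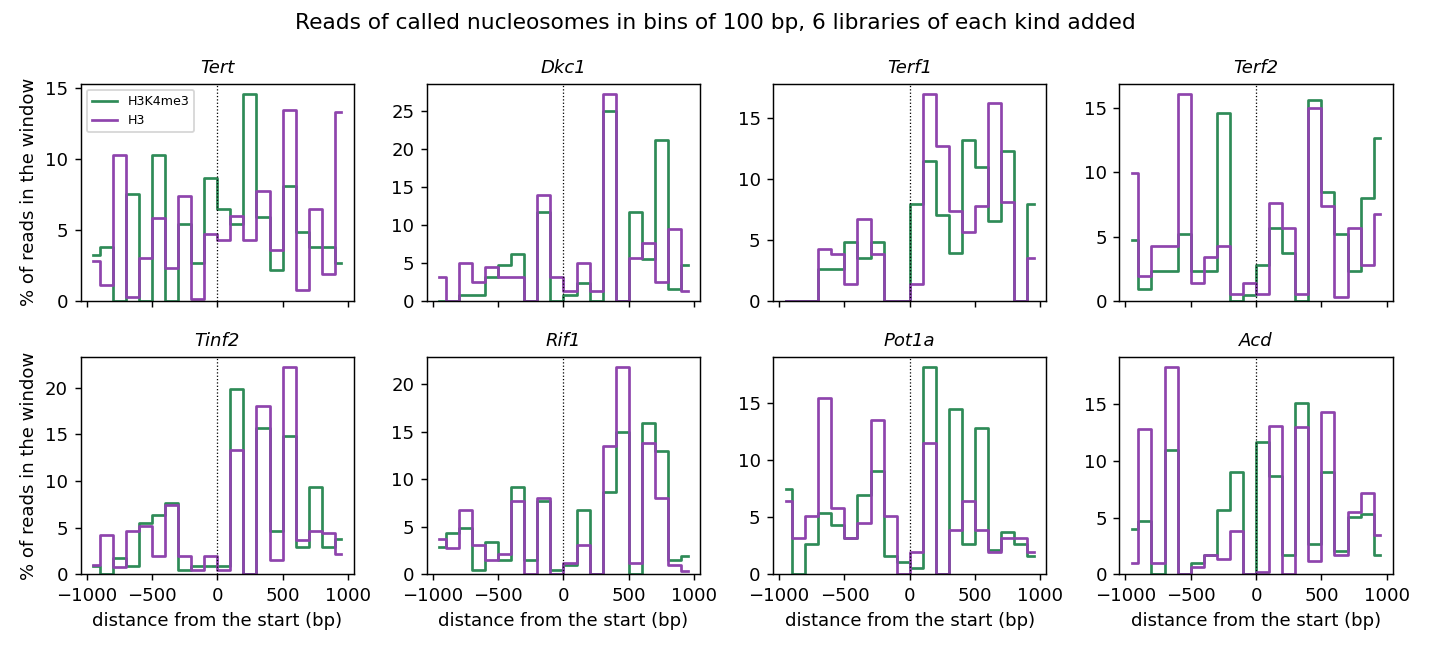
Percent of the H3K4me3 (green) and H3 (purple) reads of each 2-kb window that fall in bins of 100 bp by distance from the start (horizontal axis, bp; dotted line, start), 6 libraries added. The bin from -100 to 0 bp holds 0.0% of the H3K4me3 reads at *Terf1* and *Acd* and 0.847% at *Tinf2*, against 8.65% at *Tert*, while the bin from 0 to 100 bp holds 11.7% at *Acd* and 7.93% at *Terf1*.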

How the data were processed

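RNA-seq and MNase ChIP-seq of MEFs, pre-iPSCs and iPSCs were analysed from the deposited files. For RNA, the authors aligned reads with TopHat2 2.0.4 and computed FPKM with Cufflinks 2.0.2, in 2 tables that each hold 1 library of every cell type. For ChIP, Bowtie 1.0.1 was used by the authors on mm9, and they kept unique reads with at most 2 mismatches, moved them 73 bp to the nucleosome centre and called nucleosomes. The deposited counts are the reads of each call, and the spread of read positions deposited beside them was not used in a test. Reads outside calls are not analysed here, and 1 promoter sequence is not reported here. The deposited positions of starts on the plus strand count from 0, as compared with the annotation of the same build.

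The rule for the 8 genes uses symbols alone, but the set and all other lists were chosen with earlier results of these data known. The named genes are the 8, the fixed telomere list (at most the 3 largest called rises and falls of a comparison, with *Terf2ip*, *Pot1b*, *Nop10*, *Nhp2* and *Gar1* in any case) and the 3 genes nearest to each of the 8 in pattern. *Daxx* and *Blm* fall outside this rule and were named after their values were seen, and the *Zscan4* genes are named as a family. Genes whose mean reached 0.5 FPKM entered limma 3.58.1, run with an intensity trend on log2(FPKM + 1). Promoter counts within 1000 bp of a start were tested with edgeR 4.0.16 (filterByExpr, TMM; called at an adjusted p below 0.05 alone), with DESeq2 1.42.0 as an alternative. RPKM were scaled to the uniquely mapped reads the study gives for each library. P-values were adjusted by Benjamini-Hochberg over all features of a comparison. The tests were also run on simulated libraries with planted changes, which checks the code and does not bear on the differences given here. Nothing in the labels ties a library to a clone, so p-values rest on the spread between libraries and not between known clones. That spread is estimated over the 3 cell types together, from 2 libraries of each. In limma it is what remains after the table term. Same-numbered libraries did not deviate together in every pair of cell types (expression, correlations of 0.346, -0.205 and 0.112). Counts give reads as sampled, and intervals cover counting error only. Software was scipy 1.17.1 and pandas 2.3.3 on Python 3.11.15, with R 4.3.3 for the tests.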

Additional observations from a re-analysis of the deposited data

How the results depend on the processing

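Every alternative was run on all features of a comparison. Of the expression calls, the count of the 8 genes called in pre-iPSCs against MEFs was 1, went to 0 with no filter on low values and to 3 with each chromosome centred, and ran from 0 to 3 over the fits that leave out a library. Calls over all tested genes moved too, from 2032 to 1244 with no filter, to 2075 with each chromosome centred and to between 1072 and 2912 without a library. In iPSCs against MEFs the count was 3, went to 1 with no filter, was 2 with no replicate block, 4 (with *Pot1a*) under quantile normalization, without the intensity trend and with each chromosome centred, and ran from 0 to 3 over the fits without a library, while calls over all genes went from 3206 to 2371 with no filter and to between 1117 and 3720 without a library. In iPSCs against pre-iPSCs it was 0 under every alternative. For H3 the count ran from 0 to 1 over the fits without a library in pre-iPSCs against MEFs (*Pot1a*) and in iPSCs against pre-iPSCs (*Terf2*), in both cases without replicate 2 of pre-iPSCs, which leaves only the library that stands apart, and 4589 and 2146 promoters were then called. For H3K4me3 it went from 0 to 1 with uniquely mapped reads in pre-iPSCs against MEFs (*Dkc1*) and in iPSCs against MEFs (*Pot1a*), and to 1 in the latter with each chromosome scaled to its reads (*Terf2*). For H3K27me3 with no filter on low counts it was 1 in pre-iPSCs against MEFs (*Rif1*) and 2 in iPSCs against MEFs (*Rif1* and *Acd*), and in the latter it ran from 0 to 1 without a library (*Acd*, which passes the filter in such fits through the 18 reads of replicate 1 of iPSCs and was not tested without that library). The cause of these changes was not tested.

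Above the presence threshold of H3K4me3 in both libraries were 5 promoters (MEFs), 2 (pre-iPSCs) and 2 (iPSCs). With a threshold of 2 RPKM these were 0, 0 and 0. They were 8, 4 and 4 with RPKM scaled to the reads in calls, and 7, 1 and 4 with a window of 500 bp. Over all promoters, the shares above 1 RPKM in single libraries were 56.4% and 47.3% in MEFs. These shares were lower for pre-iPSCs (40.5% and 35.9%) and iPSCs (41.1% and 34.4%) too. Shares of all promoters in both libraries at once, or with the other window and scaling, are not given here. H3K27me3 gave 0 throughout. Same-numbered H3 libraries of pre-iPSCs and iPSCs deviated together (correlation of 0.795), but the other 8 ChIP pairs lay between -0.0473 and 0.115, so the numbers were not taken to pair the libraries. A replicate block called 0 of the 8 in each of the 9 comparisons and 750, 10 and 2515 promoters for H3K4me3 against 681, 0 and 2433 without it. No call changed its sign. With 2 libraries a group and 13 to 70 H3K4me3 reads a promoter, the depth limits which differences can be detected.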
